A study of Caenorhabditis elegans with 8 samples.

Results

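Nuclear hormone receptors are transcription factors that bind DNA through a pair of zinc fingers and, in many cases, a lipophilic ligand through a pocket in their C-terminal domain, so that a small molecule entering a cell can change which genes are read. Nematodes carry a greatly expanded family, most of which descends from an ancestor resembling the mammalian HNF4 receptors, beside a smaller set with recognisable counterparts in insects and vertebrates. In *C. elegans* the characterised members act in steroid hormone signalling and dauer formation, fat and propionate metabolism, molting, sex determination, neuronal identity and the response to foreign compounds and pathogens. The family was defined by gene name, taking every gene whose symbol began with *nhr-* together with *daf-12*, *odr-7*, *unc-55*, *sex-1* and *fax-1*, without use of any measured value. This gave 227 of the 17521 genes in the table, of which 218 are annotated as protein coding and 9 as pseudogenes. The current annotation carries 274 genes under these names. The table leaves out genes that failed a minimum of reads in the authors' processing, and names can differ between annotations. The other names, among them *odr-7* and the receptor gene *nhr-111*, were not analysed here.

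The worms were of the wild-type N2 strain. Tested worms received 50 μM atracurium besylate, a neuromuscular blocking agent that antagonises nicotinic acetylcholine receptors, and control worms received water vehicle. Both treatments lasted 24 h, from the fourth larval stage (L4) until the first day of adulthood. Each group had 4 samples of about 1000 whole worms, so that all tissues were pooled, and a change in the number of cells of one type cannot be told apart from a change in the RNA per cell. The comparison asks which receptor genes changed in transcript level with atracurium.

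Between 30836643 and 35947045 reads fell on the tabulated genes in atracurium samples, and between 27922986 and 60015200 in water samples. Atracurium replicates 2 and 4 stood apart from the other samples. They had 615 and 603 genes without a read, against 238 and 250 in the other two atracurium samples and 75 to 308 in water samples, and received the lowest weights, 0.342 and 0.507, when sample quality was estimated from the fit. Values without both are given below where a gene described changed its side of an unadjusted p of 0.01 in limma-trend, and for some others whose log2 fold change moved. The log2 fold change also went with exonic length, with a Spearman correlation of 0.42 across all genes, which share these 8 libraries, and of -0.05 across the receptors. The part of gene length in the receptor values was not tested beyond the values given with its trend removed. Summed markers of body wall muscle (1775 to 1956 CPM with atracurium, 1467 to 1684 CPM with water) and of pharynx (88.2 to 101 against 67.1 to 70.5 CPM) did not overlap between groups and were higher with atracurium, while those of sperm were lower (9.51 to 11.5 against 12.4 to 15.2 CPM). Taken singly, each of the 4 sperm markers and the pharynx marker *tnc-2* overlapped between groups. The muscle and pharynx markers had median exonic lengths of 6104 and 6334 bases, against 1277 for all genes. The part of gene length in the marker values was not tested. Summed intestine, neuron, hypodermis, germ line and oocyte markers overlapped, and no marker was at 0. The part of tissue composition in the receptor values was not tested.

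Atracurium left the receptor family as a whole close to its level in water controls. In limma-trend fitted to all 17521 genes with Benjamini-Hochberg adjustment, 1 of 227 receptors, *nhr-17*, passed an adjusted p of 0.05 and rose, where 0.177% of all genes passed in either direction. At the looser unadjusted p of 0.01, 5 receptors were higher, *nhr-17*, *nhr-19*, *nhr-31*, *nhr-3* and *nhr-130*, which is 2.20% of the family beside 1.20% of all genes, and 0 receptors were lower, beside 1.87% of all genes. At an unadjusted p of 0.05 the counts were 10 higher (4.91% of all genes) and 5 lower (6.63% of all genes), and limma-voom on the recovered reads had 3 higher (1.34% of all genes) and 0 lower (2.01% of all genes) at 0.01. With any 1 sample left out the higher count at 0.01 was between 1 and 4 and the lower count 0 or 1. The share of all genes in those fits is not given here, so these counts cannot be set beside it. Genes at an adjusted p of 0.05 ran from 17 to 78 in them, against 31 with all samples. Without atracurium replicates 2 and 4 the counts at 0.01 were 2 higher (2.84% of all genes) and 1 lower (2.73% of all genes). The 4 atracurium values lay above all 4 water values for 7 receptors (3.08%, beside 3.41% of all genes) and below them for 5 (2.20%, beside 3.75%). Log2 fold changes were above 0 for 117 receptors and below 0 for 110, with a median of 0.01, where the median of all genes was -0.01.

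**Figure D1:**
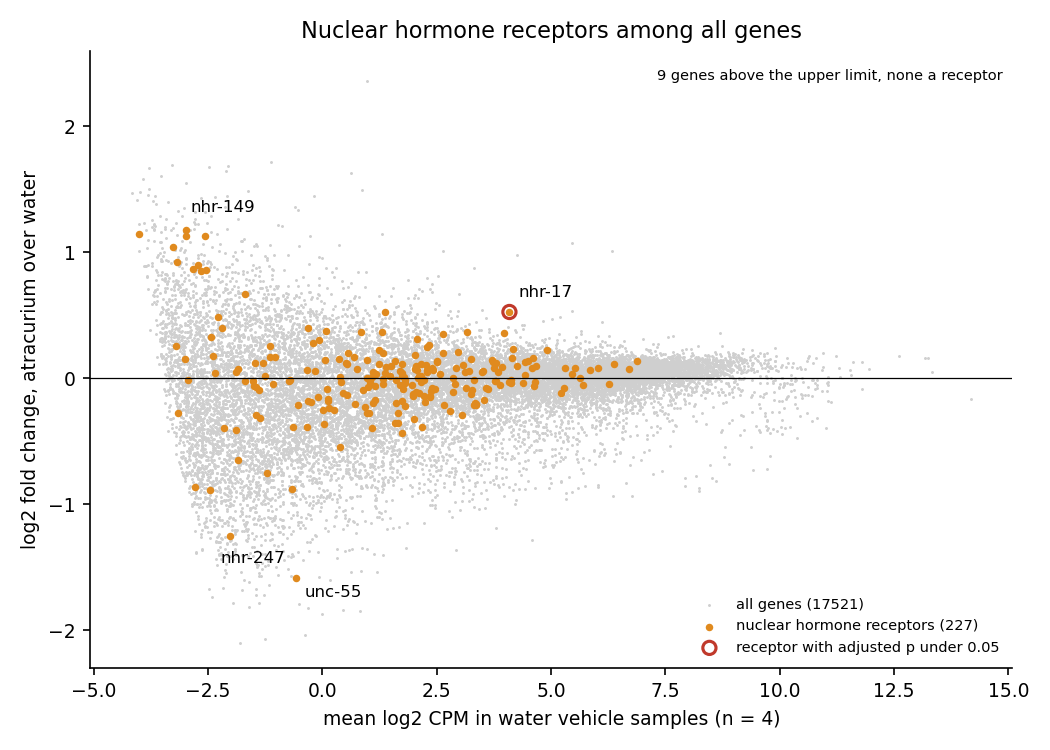
Mean log2 CPM in the 4 water samples (horizontal axis) and log2 fold change of atracurium over water (vertical axis) for all 17521 genes (grey) and the 227 nuclear hormone receptors (orange). *nhr-17*, circled, is the receptor that passed an adjusted p of 0.05, and the receptors farthest from 0, such as *unc-55*, *nhr-247* and *nhr-149*, lie at the low end of expression; 9 genes above a log2 fold change of 2.6 are not drawn, none of them a receptor.

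For most of the family the data set a bound on the size of any change. The 95% confidence interval of the log2 fold change lay inside a change of 1.5-fold in either direction for 121 receptors and inside 2-fold for 181. The width followed the depth of each gene. The median half-width of the interval was 0.15 on the log2 scale for the 14 receptors with a mean of at least 1000 reads per sample, 0.29 for the 107 with 100 to 1000 reads, 0.55 for the 60 with 20 to 100 reads and 1.06 for the 46 with fewer than 20 reads. A 2-fold change thus lay within the typical interval of that last set. Where an interval is given below for a ratio of reads, it covers counting error only.

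*nhr-17*, a receptor gene to which no role is ascribed here, lies on the X chromosome at X:12663837-12667854 on the minus strand (WBcel235). Its log2 CPM was 4.56, 4.75, 4.57 and 4.6 in atracurium samples, against 4.03, 4.21, 4.18 and 3.95 in water samples. The lowest atracurium sample lay above the highest water sample, and the groups were each tight, at 4.62 ± 0.09 with atracurium and 4.09 ± 0.13 with water (SD, n = 4 each). Per length, the transcript averaged 15.4 ± 0.94 RPKM with atracurium and 10.7 ± 0.93 RPKM with water. The log2 fold change was 0.53 with a standard error of 0.09, a 1.44-fold increase with a 95% interval of 1.27 to 1.64 (limma-trend, adjusted p = 0.0284). The call did not survive the omission of any single sample other than atracurium replicate 2 (adjusted p = 0.0539 to 0.138 in those 7 limma-trend fits, and 0.0161 without that replicate), although the log2 fold change stayed between 0.48 and 0.57. It was also lost without the mean-variance trend (adjusted p = 0.144 by limma) and with replicate number added to the model (adjusted p = 0.0722 by limma-trend), although no label says that equal numbers pair samples. Of the 12 alternative settings other than leaving out a single sample, 10 kept the call. Among them were limma-voom on recovered reads (adjusted p = 0.0356) and the length trend removed (adjusted p = 0.00825 by limma-trend). It also held without atracurium replicates 2 and 4 (adjusted p = 0.0327 by limma-trend).

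The neighbours of *nhr-17* were also examined. Of 26 other tested genes within 100 kb, 2 passed an adjusted p of 0.05 in limma-trend, beside 0.177% of all genes. They were *pgp-13* and *pgp-14*, which encode P-glycoprotein efflux pumps and were singled out after their values were seen. *pgp-13*, 70.9 kb to the right, had log2 CPM of 6.10, 6.0, 6.03 and 5.86 with atracurium and 1.62, 1.49, 1.4 and 1.61 with water, a log2 fold change of 4.46 ± 0.09 (SE), and *pgp-14* a log2 fold change of 1.01 ± 0.12 (adjusted p = 0.0018 by limma-trend). 5 of the tested genes stand between *nhr-17* and *pgp-13*, and none of these passed the test. To the left, *lep-5* at 10.3 kb had a log2 fold change of -0.40 (unadjusted p = 0.0038, adjusted p = 0.279, limma-trend), with separate groups. *R09A8.2* and *T24D5.2*, also to the left, were separate in the other direction, at 0.20 and 0.13. *nhr-17* overlaps 2 genes on its own strand, *nlp-76* with a log2 fold change of -0.42 and *C02B4.8* with 0.52, and reads in the shared stretches could not be assigned to one gene from the table.

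The other 4 receptors past an unadjusted p of 0.01 did not pass the adjustment (adjusted p = 0.301 to 0.322, limma-trend). *nhr-31*, known for its action in the excretory cell, where it promotes expression of vacuolar ATPase genes, had log2 CPM of 5.09, 5.19, 5.13 and 5.14 with atracurium and 4.87, 4.82, 4.89 and 5.07 with water. The groups did not overlap but water replicate 4 came close to the lowest atracurium sample, and the log2 fold change was 0.22 (SE 0.07, unadjusted p = 0.0082). In limma-trend it was 0.20 without atracurium replicates 2 and 4 (unadjusted p = 0.032, adjusted p = 0.285) and 0.16 with the length trend removed (unadjusted p = 0.0311, adjusted p = 0.499). *nhr-19* on chromosome II had log2 CPM of 3.39, 3.56, 3.76 and 3.46 with atracurium and 2.96, 3.27, 3.25 and 3.20 with water, a log2 fold change of 0.37 (SE 0.11, unadjusted p = 0.0069). Its groups were separate, with water replicate 1 the lowest. *nhr-130* had log2 CPM of 2.82, 3.01, 3.09 and 3.02 with atracurium and 2.73, 2.74, 2.59 and 2.49 with water, again without overlap, for a log2 fold change of 0.35 (SE 0.11, unadjusted p = 0.0097) that was 0.32 without atracurium replicates 2 and 4 (unadjusted p = 0.0389). *nhr-3* overlapped between groups, since atracurium replicate 1 at 4.04 lay below water replicate 1 at 4.2. Its other atracurium samples were at 4.42, 4.34 and 4.51 and its other water samples at 4.00, 3.91 and 3.79, for a log2 fold change of 0.36 (SE 0.12, unadjusted p = 0.0095) that was 0.22 without atracurium replicates 2 and 4 (unadjusted p = 0.085).

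Of the receptors with a larger p in the same direction, *nhr-66*, which acts with NHR-49 in lipid metabolism, had one of the narrower intervals. Its log2 CPM was 7.07, 7.06, 7.0 and 6.94 with atracurium and 6.92, 6.80, 6.93 and 6.87 with water, which did not overlap, and the log2 fold change was 0.14 (95% interval 0.02 to 0.26). The gene has 4831 bases of exon, and with the length trend removed its log2 fold change was 0.03 (unadjusted p = 0.586, adjusted p = 0.918, limma-trend). *nhr-30* and *nhr-149* also had separate groups, at far lower depth. *nhr-30* had 11, 10, 12 and 9 reads with atracurium and 5, 7, 1 and 6 with water, and *nhr-149* had 4, 13, 14 and 4 reads with atracurium and 3, 4, 3 and 1 with water. The depth-scaled ratio of summed reads was 2.55 for *nhr-30* (95% counting interval 1.45 to 4.64) and 3.67 for *nhr-149* (1.82 to 8.01). None of these 3 passed an adjusted p of 0.05 in limma-trend (adjusted p = 0.347 to 0.392).

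**Figure D2:**
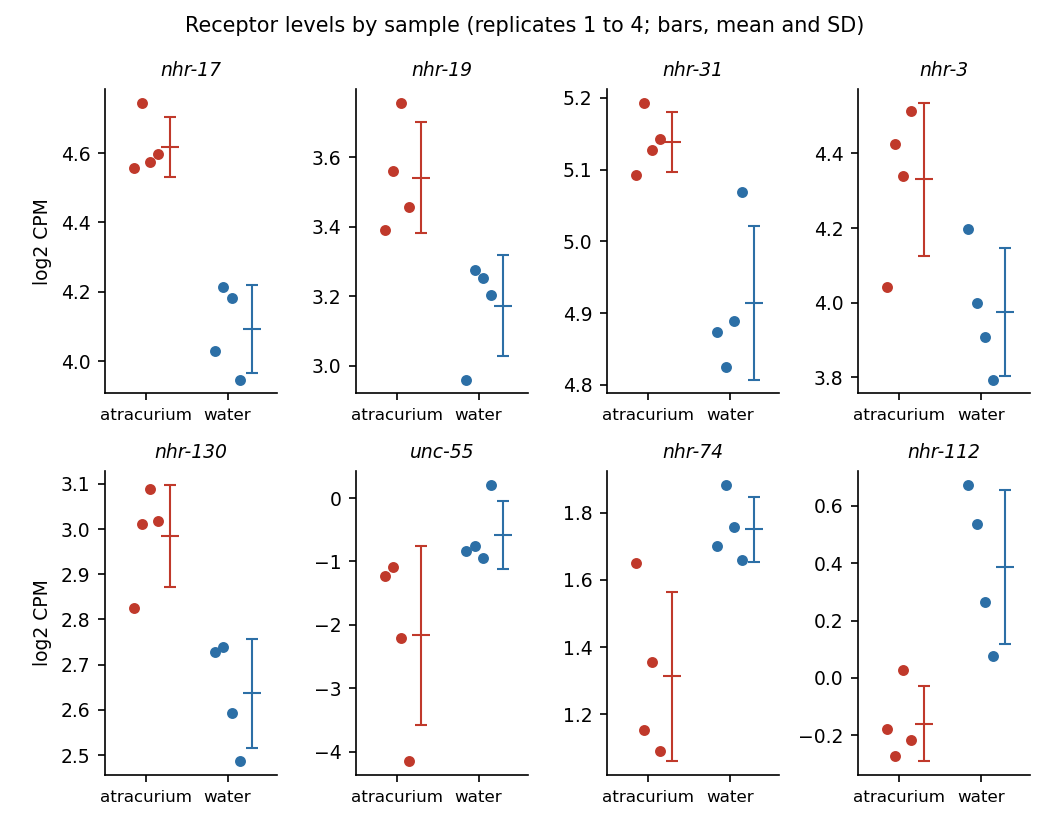
Log2 CPM of 8 receptors in the 4 atracurium samples (red, left) and the 4 water samples (blue, right) of each panel, with points in the order of replicates 1 to 4 and bars for the mean and SD. The groups of *nhr-17* are the farthest apart for their spread, atracurium replicate 1 of *nhr-3* falls among the water samples, and atracurium replicate 4 of *unc-55* sits at the floor of the scale, a sample without a read.

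No receptor was lower at an unadjusted p of 0.01, and the lowest p on that side belonged to *unc-55*, a relative of the vertebrate COUP transcription factors that sets the synaptic pattern of one class of motor neurons. It had 13, 14, 5 and 0 reads in atracurium samples and 17, 33, 13 and 32 reads in water samples. On the log2 CPM scale the atracurium values of -1.23, -1.08, -2.21 and -4.2 all lay below the water values of -0.84, -0.76, -0.94 and 0.21. The sample without a read and water replicate 4 set much of the difference, and the log2 fold change of -1.59 (SE 0.60, unadjusted p = 0.0212, limma-trend) was -0.92 without atracurium replicate 4. Without atracurium replicate 2 it was -1.95 (unadjusted p = 0.0025, adjusted p = 0.172, limma-trend). Summed reads gave a ratio of 0.388 (95% counting interval 0.252 to 0.585).

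*nhr-74* and *nhr-112*, both without a described role here, were also lower in every atracurium sample than in any water sample. *nhr-74* had log2 CPM of 1.65, 1.15, 1.36 and 1.09 with atracurium and 1.70, 1.88, 1.76 and 1.66 with water. Atracurium replicate 1 nearly reached the water samples, and the log2 fold change of -0.44 (SE 0.17, unadjusted p = 0.0241) was -0.25 without atracurium replicates 2 and 4. *nhr-112* had -0.18, -0.27, 0.03 and -0.22 with atracurium and 0.67, 0.54, 0.26 and 0.08 with water, a log2 fold change of -0.55 (SE 0.23, unadjusted p = 0.0364). The same separation was seen for *nhr-5* (log2 fold change -0.20) and for the pseudogene *nhr-220* (-0.88), which was at -0.56 without atracurium replicate 2 and at -0.37 without atracurium replicates 2 and 4. *nhr-247* had 0 reads in atracurium replicates 1 and 2, 3 and 6 in the other two, and 6, 7, 5 and 10 in water samples, so its groups overlapped and its log2 fold change of -1.25 rests on few reads. It was -0.96 without atracurium replicate 2 and -1.66 without atracurium replicate 4 (unadjusted p = 0.0098, adjusted p = 0.196, limma-trend, for the latter). *nhr-115* (-0.39, and -0.21 without atracurium replicate 4) and *nhr-84* (-0.20, and -0.09 without atracurium replicates 2 and 4) completed the 8 receptors with the smallest p on the lower side, and none of the 8 passed the adjustment (adjusted p = 0.364 to 0.472, limma-trend).

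The receptors with counterparts outside nematodes include the best characterised endocrine and developmental members. Of the 15 listed, 14 were in the table, and none passed either threshold in either direction (limma-trend, with *unc-55* the 1 member at an unadjusted p of 0.05 and 0 at 0.01 by limma-voom), with a median log2 fold change of 0.04. Of all genes, 1.20% were higher and 1.87% lower at 0.01 in limma-trend, and 4.91% and 6.63% at 0.05. By limma-voom the shares at 0.01 were 1.34% and 2.01%. DAF-12, which binds dafachronic acids and governs dauer formation and adult lifespan, was encoded by a transcript with log2 CPM of 4.21, 3.75, 3.90 and 3.60 in atracurium samples and 3.73, 3.54, 3.82 and 3.86 in water samples. The 2 groups overlapped and the interval of the log2 fold change ran from -0.15 to 0.41. Without atracurium replicates 2 and 4 its log2 fold change was 0.32 (unadjusted p = 0.0159, adjusted p = 0.216, limma-trend), against 0.13 with all samples, and with the length trend removed it was 0.02. *nhr-8*, needed for sterol homeostasis and resistance to toxins, had a log2 fold change of 0.12 (-0.15 to 0.40), and 0.04 without atracurium replicates 2 and 4. *nhr-48*, of the same subfamily, was at 0.10 (-0.09 to 0.28), and at 0.01 with the length trend removed. Without atracurium replicates 2 and 4 *nhr-48* was at 0.21 (unadjusted p = 0.0262, adjusted p = 0.263, limma-trend). *sex-1*, whose product reports the number of X chromosomes during sex determination, was among the most abundant receptors and its log2 fold change was 0.08 (-0.06 to 0.22), and 0.14 without atracurium replicates 2 and 4. *nhr-239* had 11, 4, 14 and 4 reads with atracurium and 8, 4, 2 and 0 with water, and its log2 fold change of 1.13 had an interval that included 0 (-0.09 to 2.36). Without atracurium replicates 2 and 4 it was 1.78.

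None of the 8 receptors of lipid metabolism passed an unadjusted p of 0.01 in limma-trend or limma-voom, and 2, *nhr-62* and *nhr-66*, were higher at 0.05 in limma-trend, beside 4.91% of all genes. *nhr-49*, which controls fatty acid desaturation and beta-oxidation and carries out functions of mammalian PPAR alpha, had log2 CPM of 6.81, 6.85, 6.79 and 6.72 with atracurium and 6.76, 6.64, 6.71 and 6.77 with water. Those groups overlapped, and the interval of its log2 fold change, -0.05 to 0.20, lay inside a change of 1.5-fold. Its partners *nhr-80*, which drives stearoyl-CoA desaturase expression, and *nhr-13* had log2 fold changes of -0.04 (-0.30 to 0.21) and 0.09 (-0.11 to 0.30). *nhr-62*, required for longevity under dietary restriction, came nearest to a threshold with 2.39, 2.40, 2.24 and 2.51 log2 CPM under atracurium and 2.01, 2.34, 1.96 and 1.97 under water, a log2 fold change of 0.31 (0.01 to 0.61, unadjusted p = 0.0423, adjusted p = 0.425, limma-trend). Water replicate 2 lay among the atracurium samples. The remaining members, *nhr-64*, *nhr-69* and *nhr-76*, which modify fat storage, were at -0.13 (-0.40 to 0.15), 0.03 (-0.17 to 0.22) and -0.21 (-0.46 to 0.04), and *nhr-76* was at -0.05 without atracurium replicates 2 and 4.

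The 3 receptors that tie diet to metabolism were also short of an unadjusted p of 0.05 in limma-trend, beside 4.91% of all genes higher and 6.63% lower. *nhr-10* and *nhr-68*, which switch on the propionate shunt when vitamin B12 is short, had log2 fold changes of -0.11 (-0.28 to 0.05) and -0.05 (-0.23 to 0.12). *nhr-114*, which protects the germ line on diets poor in vitamin B12 through the methionine cycle, had 6.56, 6.63, 6.44 and 6.38 log2 CPM with atracurium and 6.32, 6.42, 6.44 and 6.37 with water, a log2 fold change of 0.12 (-0.03 to 0.26). The highest atracurium values exceeded all water values, while atracurium replicate 4 lay within them.

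Atracurium is a foreign compound, and 7 of 8 listed receptors of stress, xenobiotics and pathogens were in the table under these names. None passed an unadjusted p of 0.05 in limma-trend (4.91% of all genes higher, 6.63% lower) or 0.01 in limma-voom (1.34% higher, 2.01% lower). The log2 fold changes of these receptors ran from -0.08 to 0.12. *nhr-86*, which senses a bacterial metabolite and induces defence genes in the intestine, had a log2 fold change of 0.03 (-0.13 to 0.20). *nhr-176*, needed for the cytochrome P450 response to the drug thiabendazole, was at 0.06 (-0.25 to 0.38), and *nhr-57*, a target of the hypoxia factor HIF-1, at -0.00 (-0.24 to 0.24). *nhr-14*, which links iron uptake and innate immunity, *nhr-28* and *nhr-45* were at -0.05, 0.06 and -0.08, each with an interval inside -0.33 to 0.29.

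**Figure D3:**
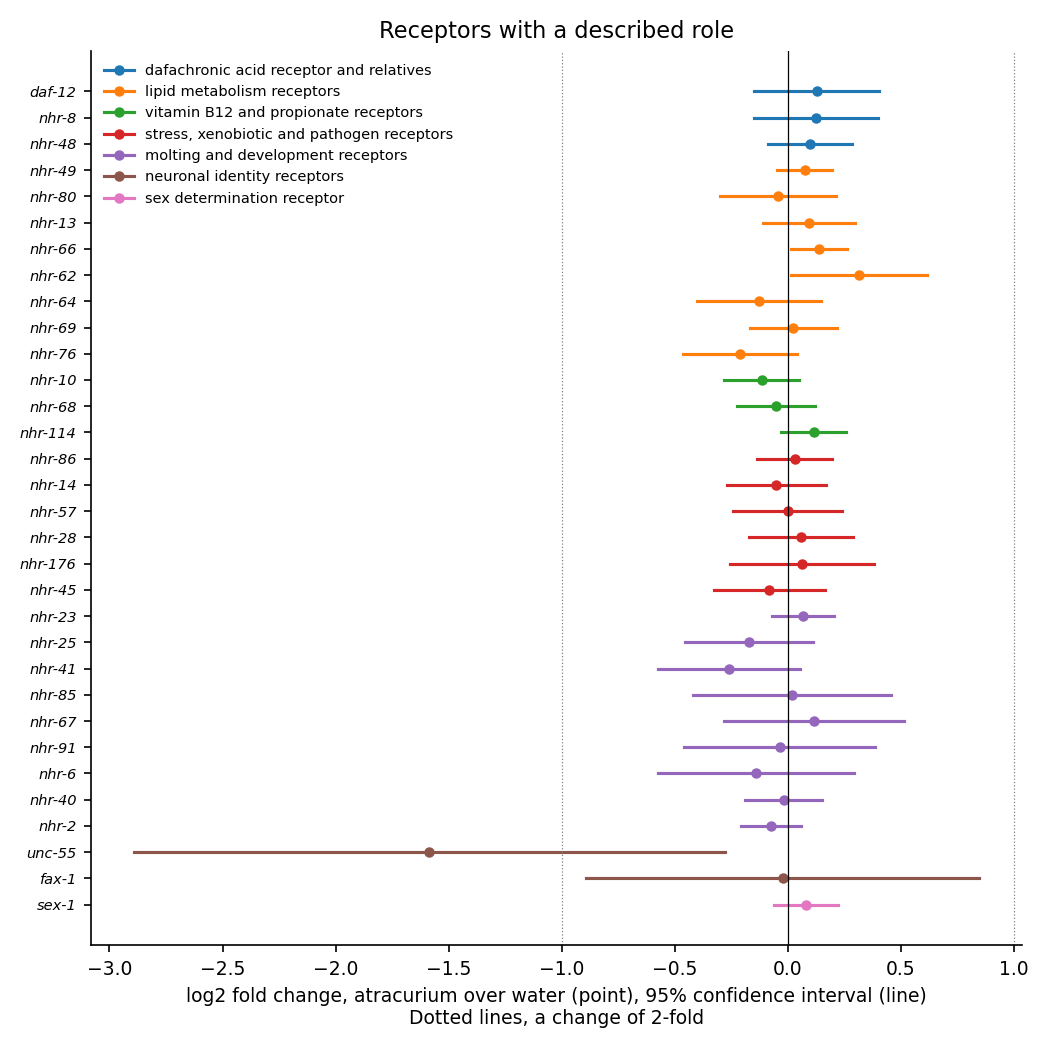
Log2 fold change of atracurium over water (points) with the 95% confidence interval (lines) for receptors with a described role, coloured by role, with dotted lines at a change of 2-fold. *nhr-239* is not drawn. Of the receptors drawn, all intervals but that of *unc-55* lie inside 2-fold, those of *nhr-66*, *nhr-62* and *unc-55* exclude 0, and none passed an adjusted p of 0.05.

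Among the 9 receptors of molting and development, all of them in the table and 0 of them at an unadjusted p of 0.05 in limma-trend or 0.01 in limma-voom, 3 log2 fold changes were above 0 and 6 below, with a median of -0.04. Of all genes, 4.91% were higher and 6.63% lower at that 0.05, and 1.34% and 2.01% at that 0.01. *nhr-23*, related to the ROR receptors and required for each molt, had 5.96, 5.95, 5.95 and 5.81 log2 CPM with atracurium and 5.77, 5.84, 5.93 and 5.86 with water, a log2 fold change of 0.07 (-0.07 to 0.21). *nhr-25*, related to SF-1 and LRH-1 and active in the epidermis, was at -0.17 (-0.45 to 0.11), *nhr-41* at -0.26 (-0.58 to 0.05) and *nhr-85*, related to Rev-erb, at 0.02 (-0.42 to 0.46). Without atracurium replicates 2 and 4, *nhr-25* was at -0.02, *nhr-41* at -0.08 and *nhr-85* at 0.20. *nhr-6*, the worm NR4A receptor that shapes the spermatheca, was at -0.14, *nhr-67*, related to Tailless and needed in the anchor cell, at 0.12, *nhr-91* at -0.04, *nhr-40*, which acts in muscle development, at -0.02 and the embryonic receptor *nhr-2* at -0.07. *nhr-67* also specifies neurons. With it, 3 of 4 neuronal identity receptors were in the table, *unc-55* being described above and *fax-1*, which specifies interneurons, having 16, 8, 30 and 25 reads with atracurium and 16, 24, 20 and 20 with water. The *fax-1* groups overlapped and its log2 fold change was -0.02 (-0.89 to 0.85).

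Levels were compared between genes per length, as RPKM. The receptors were less abundant than genes in general, with a median of 2.11 RPKM in water samples beside 4.6 RPKM for all genes, and 156 of 227 reached 1 RPKM and 25 reached 10 RPKM. The 5 highest were the metabolic receptor genes *nhr-114*, *nhr-49* and *nhr-68*, then *sex-1* and *nhr-86*. *nhr-114* was first with 59.7 ± 4.8 RPKM with atracurium and 55 ± 2.0 RPKM with water (SD, n = 4 each). *nhr-49* followed at 52.0 ± 2.0 and 49.4 ± 2.0 RPKM, then *nhr-68* at 37.9 ± 4.1 and 39.1 ± 1.6, *sex-1* at 36.1 ± 2.4 and 34.2 ± 1.3, and *nhr-86* at 32 ± 2.9 and 31.2 ± 1.5, in each case with atracurium and with water. In water samples *nhr-114*, *nhr-49* and *nhr-68* were each separate from the next gene in the order, whereas *sex-1* and *nhr-86* overlapped. Of 226 neighbouring pairs in the order, 219 overlapped between samples, and the pairs further down that did not were *nhr-86* and *nhr-274*, *nhr-2* and *nhr-46*, *nhr-20* and *nhr-31*, and *nhr-40* and *nhr-32*. Reads were found in every group for all 227 receptors, and 14 had at least 1 sample without a read.

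Levels also differed by position, as a description. Chromosome V held 141 receptors, 62.1% of the family beside 20.8% of all genes, and these had a median of 1.56 RPKM in water samples, beside 2.1 RPKM for all genes of that chromosome. The 20 receptors on the X chromosome had the highest median, 6.57 RPKM, beside 2.99 RPKM for all genes there, and the 30 on chromosome IV had 3.78 RPKM. The receptor genes were often side by side. Counting neighbours in the current annotation, 44 runs of adjacent receptor genes held 115 of the 227, with a median of 1.51 RPKM in water samples, and the 112 outside runs had 3.43 RPKM.

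Members of a run had log2 fold changes in both directions in the runs described here. The median log2 fold change was 0.01 in runs and 0.02 outside them. The longest, of 8 genes at V:3852298-3886204 from *nhr-186* to *nhr-124*, had 5 genes in the table, all at low level, with log2 fold changes from -0.86 to 0.85. In the run of 7 from *nhr-56* to *nhr-96* at V:2219004-2235180 the log2 fold changes went from -0.36 to 0.12, and in the run of 6 that holds *nhr-130*, at V:474778-491432, from -0.28 to 0.35, with *nhr-130* the one member past an unadjusted p of 0.01. Near-identical neighbours can share reads. The paper states that HTSeq was run with default parameters, and the table does not show how such reads were treated.

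**Figure D4:**
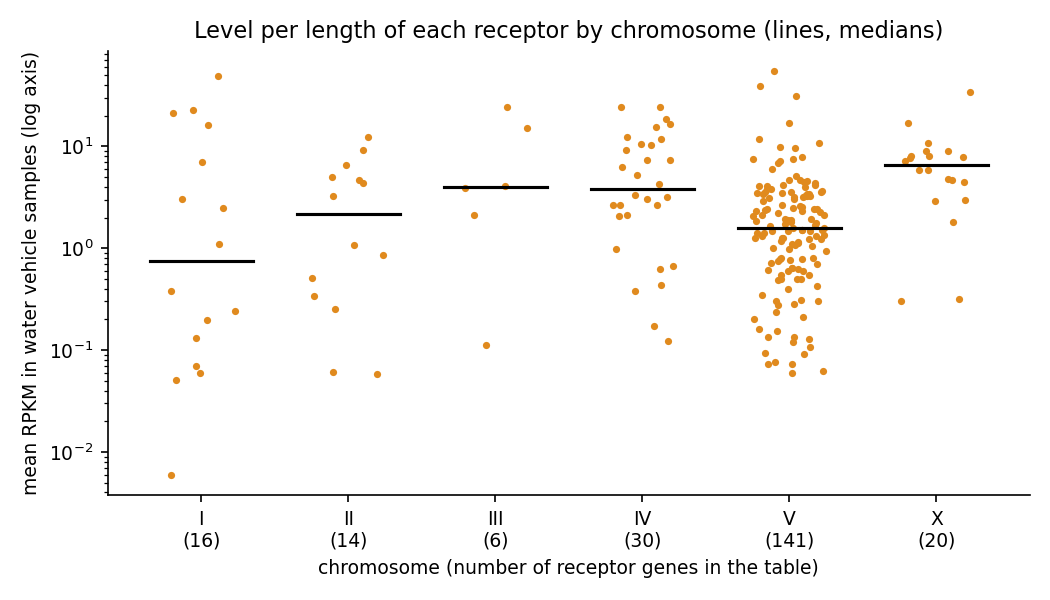
Mean RPKM in the 4 water samples (log axis) of each of the 227 receptors by chromosome, with a line at the median of each chromosome and the number of receptor genes below its name. Chromosome V holds 141 of the points and a median of 1.56 RPKM, while the 20 receptors on X have a median of 6.57 RPKM.

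Genes that act with or under these receptors were examined from lists made by role. The lists of dafachronic acid synthesis and DAF-12 partners (7 of 8 in the table), coregulators (4 of 4), methionine cycle genes (6 of 6), zinc homeostasis genes (4 of 4) and molting genes (7 of 7) had 0 members past an unadjusted p of 0.01 in limma-trend or limma-voom, and 1, *noah-1*, at 0.05 in limma-trend. Of all genes, 1.20% were higher and 1.87% lower at 0.01 in limma-trend. Those shares were 1.34% and 2.01% in limma-voom, and 4.91% and 6.63% at 0.05 in limma-trend. The smallest p in each list belonged to the DAF-12 corepressor gene *din-1* (log2 fold change 0.17), the Mediator subunit and NHR-49 coactivator gene *mdt-15* (0.13), the S-adenosylmethionine synthetase gene *sams-1* (0.13), the metallothionein gene *mtl-1* (0.75) and the cuticle gene *noah-1* (0.27). *mtl-1* had only 12, 12, 10 and 10 reads with atracurium and 5, 22, 6 and 2 with water. Its groups overlapped and its interval included 0 (-0.14 to 1.63). Without atracurium replicates 2 and 4, *mdt-15* at 0.20 (unadjusted p = 0.0079) and *sams-1* at 0.21 (unadjusted p = 0.0018) passed 0.01, and *din-1* at 0.15 passed 0.05 (unadjusted p = 0.045), with adjusted p of 0.162, 0.086 and 0.332 in limma-trend in that order. With the length trend removed, *din-1* was at 0.04, *mdt-15* at 0.02, *sams-1* at 0.08 and *noah-1* at 0.17. In that fit *mtl-1* was at 1.19 (unadjusted p = 0.0196, adjusted p = 0.444, limma-trend).

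Among 8 genes listed as dependent on NHR-49, *fmo-2* rose and no other passed the adjustment, beside 0.177% of all genes in either direction. *fmo-2*, a flavin-containing monooxygenase gene that NHR-49 and HIF-1 can induce, had 3.03, 3.66, 3.15 and 3.5 log2 CPM with atracurium and 0.62, 0.97, 1.36 and 0.96 with water. All atracurium samples lay far above all water samples, a 5.13-fold difference (log2 fold change 2.36, SE 0.19, limma-trend adjusted p = 4.52e-05). *acs-2*, an acyl-CoA synthetase gene that NHR-49 induces in fasting, had 7.29, 7.39, 7.24 and 7.4 with atracurium and 7.16, 6.86, 7.10 and 6.95 with water. The *acs-2* groups were separate, with a log2 fold change of 0.31 (SE 0.07, unadjusted p = 0.00087) that failed the adjustment (adjusted p = 0.181, limma-trend). The desaturase genes did not follow one direction, at 0.06 for *fat-5*, 0.16 for *fat-6* and -0.13 for *fat-7*. *fat-6* had an unadjusted p of 0.0338 (adjusted p = 0.402, limma-trend), with overlapping groups. The *fat-7* groups were narrowly separate, with the highest atracurium sample at 4.622 log2 CPM and the lowest water sample at 4.625 (unadjusted p = 0.0836, limma-trend).

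In the propionate shunt 1 of 5 genes, *hphd-1*, was higher at an unadjusted p of 0.01, beside 1.20% of all genes, with 8.93, 9.19, 8.87 and 8.96 log2 CPM under atracurium and 8.83, 8.59, 8.76 and 8.74 under water, a log2 fold change of 0.25 (SE 0.08, adjusted p = 0.292, limma-trend). Without atracurium replicates 2 and 4 it was 0.17 (unadjusted p = 0.0175). The shunt gene *acdh-1*, the usual reporter of NHR-10 and NHR-68 activity, was at -0.01 (-0.16 to 0.14). Of 5 HIF-1 targets listed beside *nhr-57*, 1, the cysteine synthase family gene *cysl-2*, was higher at an unadjusted p of 0.01, beside 1.20% of all genes. It had 6.30, 6.47, 6.29 and 6.43 log2 CPM with atracurium and 6.12, 5.95, 5.99 and 6.10 with water. Its groups were separate and its log2 fold change was 0.33 (SE 0.07, adjusted p = 0.102, limma-trend). The other listed targets were at 0.16 (*egl-9*), 0.05 (*rhy-1*), -0.11 (*phy-2*) and -0.11 (*F22B5.4*), each with overlapping groups.

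Of 4 immune genes described as dependent on NHR-86, 3 were in the table, and *drd-50* and *irg-4* were lower at an unadjusted p of 0.01 in limma-trend, beside 1.87% of all genes. *drd-50* had -0.09, 0.38, 0.46 and -0.17 log2 CPM with atracurium and 1.26, 0.89, 1.56 and 1.28 with water, and *irg-4*, a gene induced by pathogens, had 0.39, 0.09, 0.46 and 0.37 with atracurium and 0.90, 1.65, 1.54 and 0.80 with water. Both genes had separate groups, with log2 fold changes of -1.1 (SE 0.23, adjusted p = 0.137) and -0.90 (SE 0.24, adjusted p = 0.254) in limma-trend, so neither passed the adjustment, while *mul-1* overlapped between groups at -0.24. *drd-50* passed it without atracurium replicate 2 (limma-trend adjusted p = 0.0362). *cyp-35D1*, a cytochrome P450 gene that NHR-176 regulates, had 1.10, 0.09, 0.59 and 0.81 log2 CPM with atracurium and 0.96, 1.10, 1.68 and 1.54 with water. Atracurium replicate 1 fell among the water samples, and the log2 fold change of -0.68 (SE 0.25, adjusted p = 0.356, limma-trend) was -0.48 without atracurium replicates 2 and 4.

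**Figure D5:**
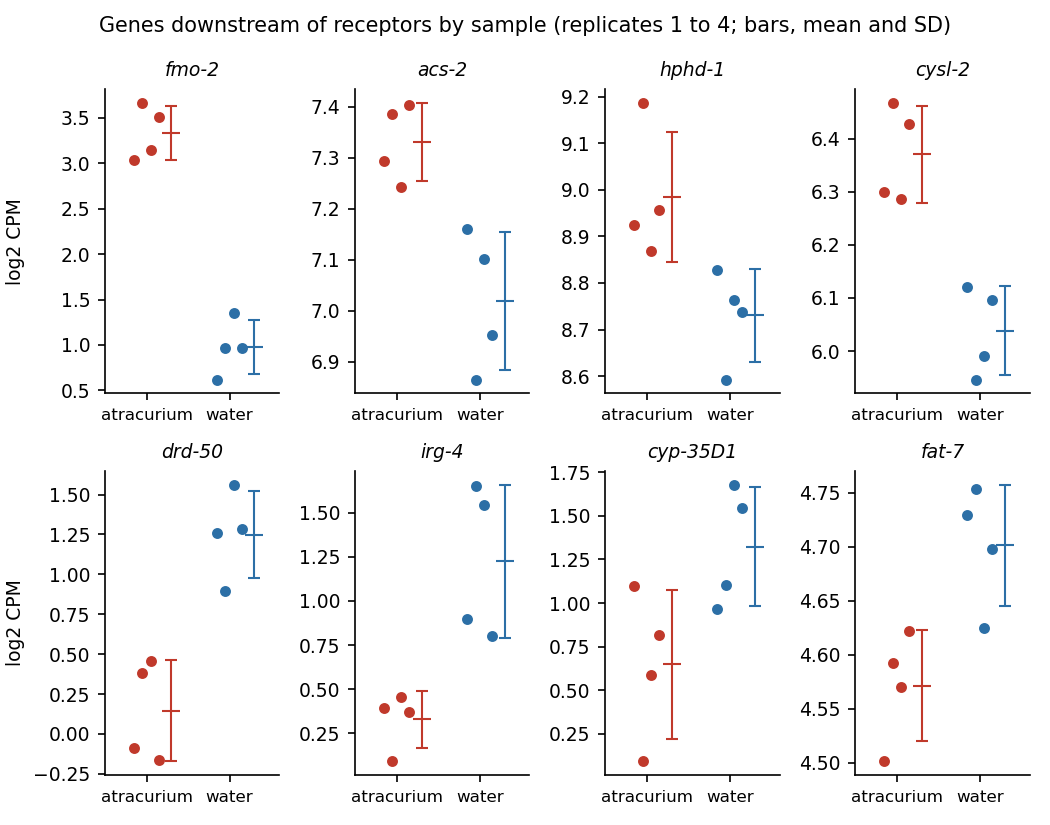
Log2 CPM of 8 genes listed as acting under nuclear hormone receptors in the 4 atracurium samples (red, left) and the 4 water samples (blue, right) of each panel, with points in the order of replicates 1 to 4 and bars for the mean and SD. *fmo-2* shows the widest separation of the 8, and of the 8 genes only *fmo-2* passed the adjustment at 0.05. *drd-50*, *irg-4* and, narrowly, *fat-7* are lower in every atracurium sample than in any water sample.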

How the data were processed

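The authors trimmed reads with Trimmomatic 0.32, aligned them with HISAT2 2.1.0 to WBcel235 with Ensembl release 91, counted them per gene and strand with HTSeq 0.11.0, dropped genes that did not exceed 2 reads in 3 or more samples, and used edgeR 3.26.8 to make the log2 CPM they deposited in columns headed CPM. Their own test used limma 3.40.6. The deposited log2 values share one floor, and every value gave a whole read number within 0.1, so depth, read counts and RPKM (CPM per kilobase of exon, with lengths from Ensembl release 115) were recovered from them.

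Samples were grouped by their labelled treatment, 4 in each group. The methods say that 4 samples were grown, and no source used here says whether they came from independent experiments, so p-values measure only the spread between these samples. Limma-trend (limma 3.58.1, R 4.3.3) was fitted to the deposited log2 CPM of all 8 samples, two-sided, with Benjamini-Hochberg adjustment over 17521 genes, after a check on simulated data. Alternatives were no trend, robust moderation, array weights, limma-voom on recovered reads, a common median, quantile normalization, log2 CPM above 0 in at least 4 samples, priors of 0.5 and 8 reads, a replicate block, each sample left out, a length trend removed and, chosen after seeing the data, atracurium replicates 2 and 4 left out.

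The members and lists were chosen with earlier results of these data known. Named receptors were those past an adjusted p of 0.05, the 8 with the smallest p in each direction, the role lists and the 5 highest per length in water; other genes were named as the members of each list past an unadjusted p of 0.01 or, failing any, the smallest p, and any beyond this were chosen after their values were seen. Markers were 3 to 5 genes per tissue. Sequences of these genes were not used here. Figures and summaries used Python 3.11.15.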

Additional observations from a re-analysis of the deposited data

Results flagged for a closer look

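In 118 groups of 4 samples (59 named genes in 2 groups), the most extreme sample stood apart from the other 3 by Dixon's criterion in 4, where chance flags about 1 in 20 groups. Atracurium replicate 4 was low for *nhr-23*, at 5.8066 log2 CPM against 5.9492 to 5.9572 in the other atracurium samples, and high for *nhr-67*, at 2.315 against 1.7029 to 1.7568. Water replicate 4 was high for *unc-55*, at 0.2123 log2 CPM against -0.9399 to -0.7569 in the other water samples, and without that sample the log2 fold change of *unc-55* was -1.32. Water replicate 2, the deepest library, was high for *nhr-62*, at 2.3422 log2 CPM against 1.9575 to 2.0084 in the other water samples.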

How the results depend on the processing

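The number of genes at an adjusted p of 0.05 was 31 and became 16 without the trend, 139 with array weights, 20 with the replicate block, 134 without atracurium replicates 2 and 4 (leave-one-out 17 to 78). Receptors called at that threshold were 1, and 0 without the trend or with the block (leave-one-out 0 to 1). Receptors higher at an unadjusted p of 0.01 were 5, and 3 without the trend, 3 by limma-voom, 2 with the block and 2 without atracurium replicates 2 and 4 (leave-one-out 1 to 4), and the lower ones 0, and 1 without the trend, with array weights or without those replicates (leave-one-out 0 to 1). Among these alternative fits, the share of all genes at 0.01 is given above only for limma-voom and without atracurium replicates 2 and 4. The family median of 0.01 became 0.07 with a common median and 0.090 with quantile normalization, where all genes moved to 0.05 and 0.02. The same-numbered samples had correlations of -0.06 to 0.04 between their deviations from the group means. Samples with different numbers had -0.09 to 0.08, so these values cannot tell whether equal numbers share a culture or day. With the replicate block *nhr-17* had an adjusted p of 0.072. *drd-50* passed an adjusted p of 0.05 with array weights (0.0209), as did *cysl-2* (0.0267), which also passed with the length trend removed (0.0226). Of 59 named genes, 45 kept their sign in every alternative run. The 14 genes that changed sign were uncalled throughout, and the cause was not tested. With array weights, the log2 fold change was -0.039 for *nhr-67*, 0.0047 for *fax-1*, -0.0095 for *nhr-86* and 0.0080 for *nhr-40*. By limma-voom, the log2 fold change was 0.052 for *fax-1* and 0.0040 for *nhr-91*. With a common median, the log2 fold change was 0.041 for *fax-1*, 0.028 for *nhr-91*, 0.021 for *nhr-80*, 0.011 for *nhr-68*, 0.013 for *nhr-14*, 0.063 for *nhr-57* and 0.047 for *nhr-40*. With quantile normalization, the log2 fold change was 0.099 for *fax-1*, 0.029 for *nhr-91*, 0.014 for *nhr-80*, 0.055 for *nhr-57* and 0.020 for *nhr-40*. With a prior of 8 reads, the log2 fold change was 0.0051 for *fax-1*. With the length trend removed, the log2 fold change was -0.045 for *nhr-85*. Without atracurium replicates 2 and 4, the log2 fold change was -0.049 for *nhr-67*, 0.25 for *fax-1*, 0.022 for *nhr-91*, 0.0099 for *nhr-64*, -0.054 for *nhr-86*, 0.038 for *nhr-14* and 0.029 for *nhr-40*. With 1 sample left out, it ran from -0.28 to 0.32 for *fax-1*, -0.16 to 0.076 for *nhr-91*, -0.064 to 0.042 for *nhr-57*, -0.10 to 0.038 for *nhr-80*, -0.10 to 0.010 for *nhr-14*, -0.12 to 0.13 for *nhr-85*, -0.032 to 0.23 for *nhr-67*, -0.10 to 0.0027 for *nhr-68*, -0.019 to 0.089 for *nhr-86*, -0.056 to 0.011 for *nhr-40*, -0.28 to 0.017 for *nhr-6*, -0.038 to 0.090 for *nhr-69* and -0.012 to 0.13 for *nhr-176*.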
